A study of Mus musculus with 8 samples.

Results

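The genes described here are 10 transcription factor genes of alpha cell or general endocrine identity, namely Pou3f4, Irx1, Irx2, Foxa1, Foxa2, Pax6, Isl1, Neurod1, Nkx2-2 and Insm1. They were taken by gene symbol from the platform's annotation, whatever their values, and 9 of the 10 had a row on the array, 1 row each, among 19494 named genes. Neurod1 had no row under its symbol or gene identifier and was not analysed here. RNA came from alphaTC1.9 cells, a mouse line of glucagon-producing pancreatic tumour cells, hybridised to Clariom S arrays. The 4 control arrays came from alphaTC1.9 cells that the labels call only "Control", and the 4 IDE-KD arrays from the same line after small interfering RNA against insulin-degrading enzyme, the product of Ide. Both groups grew in medium with 16 mM glucose, and the labels name no other treatment. Whether the control cells received a non-targeting small interfering RNA is not stated, so transfection and knockdown cannot be told apart. The labels number the arrays of each group 1 to 4 as biological replicates of independent RNA without naming separate cultures, so p-values measure only how much these samples vary, which may be technical.

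Islet endocrine cells keep their identity through a shared network of DNA-binding proteins. Foxa1 and Foxa2 are forkhead factors that open compact chromatin, Pax6, Isl1, Pou3f4 and Nkx2-2 are homeodomain factors, Neurod1 is a basic helix-loop-helix factor, and Insm1 is a zinc finger repressor of neuroendocrine cells. Pax6, Isl1, Foxa1, Foxa2 and Pou3f4 are known to bind regulatory DNA of the glucagon gene, Irx1 and Irx2 are Iroquois homeodomain factors enriched in alpha over beta cells, and Nkx2-2 and Neurod1 act in several islet cell types. These factors also occupy one another's regulatory DNA.

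Promoter sequence is given for the 4 members whose windows held a motif of the network's own DNA-binding families, among them Foxa1 and Nkx2-2, the members with the largest fitted differences between groups. Each window is the 250 bases before a RefSeq transcription start (GRCm38.p6), printed from 5′ to 3′ on the gene's own strand, with the matched motif in capitals.
Foxa1, chr12:57546112-57546361, minus strand: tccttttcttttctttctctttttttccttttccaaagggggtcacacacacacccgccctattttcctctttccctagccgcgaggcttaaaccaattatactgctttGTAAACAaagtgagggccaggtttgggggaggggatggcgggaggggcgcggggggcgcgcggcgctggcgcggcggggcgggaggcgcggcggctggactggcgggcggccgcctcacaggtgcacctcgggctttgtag
Nkx2-2, chr2:147186403-147186652, minus strand: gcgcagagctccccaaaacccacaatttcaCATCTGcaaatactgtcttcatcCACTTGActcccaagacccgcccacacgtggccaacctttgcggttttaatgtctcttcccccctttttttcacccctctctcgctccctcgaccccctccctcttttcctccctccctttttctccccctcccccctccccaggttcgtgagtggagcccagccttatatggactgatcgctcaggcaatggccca
Irx2, chr13:72628570-72628819, plus strand: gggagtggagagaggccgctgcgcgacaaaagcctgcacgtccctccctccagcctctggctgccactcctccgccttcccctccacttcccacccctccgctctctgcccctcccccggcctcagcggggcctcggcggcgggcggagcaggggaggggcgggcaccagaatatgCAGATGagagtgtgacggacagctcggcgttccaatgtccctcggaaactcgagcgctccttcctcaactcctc
Pax6, chr2:105682213-105682462, plus strand: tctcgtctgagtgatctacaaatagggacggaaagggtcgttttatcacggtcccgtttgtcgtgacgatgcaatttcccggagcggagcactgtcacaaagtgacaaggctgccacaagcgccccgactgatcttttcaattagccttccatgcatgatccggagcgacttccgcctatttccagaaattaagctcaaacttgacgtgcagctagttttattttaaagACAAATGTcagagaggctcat

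The motifs were searched on both strands in all 32851 RefSeq promoter windows of that length. The forkhead motif TGTTTAC was found in 3.17% of all windows and, as its reverse complement, 141 bases before the Foxa1 start. The NeuroD E-box CAGATG was found in 14.4% of all windows, 74 bases before the Irx2 start and, in reverse complement, 220 bases before the Nkx2-2 start. The NK2 class motif TNAAGTG was found in 10.1% of all windows and, in reverse complement, 197 bases before the Nkx2-2 start. The Iroquois motif ACANNTGT was found in 6.31% of all windows and 21 bases before this start of Pax6, the other Pax6 window holding no match. The homeodomain motif TAATTA (4.84% of all windows) and the POU octamer ATGCAAAT (1.6%) had no match in any of the 11 windows of the members. No match overlapped another. Of the 10 members 8 had at least 1 window, and Irx1 and Insm1 had no entry. A match describes letters in the window only.

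The deposited values are log2 expression values, on which 1 unit is a 2-fold change, and the arrays' medians over the 22142 tested rows ran from 5.10 to 5.17. The level of 1 row cannot be set against that of another, because probes differ in how they bind. The array's own control rows mark low signal. The median was 2.46 for background rows of random sequence, 4.16 for intron rows and 4.52 for all control rows, and the 95th percentile of intron rows was 6.87. All 9 measured members had a mean above the median control row, as did 12616 of all 22142 tested rows. On all 8 arrays, 5 of 9 exceeded the 95th percentile of intron rows, the others being Nkx2-2 (6 arrays) and Irx1, Foxa1 and Insm1 (0 arrays). By their mean over the arrays, 6 of 9 members lay above that percentile, against 5775 of the 22142 rows. Ide, the targeted gene, was lower on every IDE-KD array (7.91 to 8.14) than on every control array (8.48 to 8.72). Its log2 difference was -0.62 (SE 0.12), with an adjusted p of 1.00 in limma and p = 0.0286 in an exact two-sided permutation test, the smallest that 4 against 4 arrays allow. Of the alpha cell markers, 12 of 16 were measured, 10 of them above the median control row, with Gcg, the glucagon precursor gene, at 12.06 ± 0.07 on the control arrays and 12.06 ± 0.10 after knockdown (SD, n = 4). Of beta cell markers, 4 of 9 measured genes lay above the median control row. They were G6pc2 (8.37 in control cells), Ero1b (7.06), Nkx6-1 (6.79) and, just above it, the insulin gene Ins2 (4.61). Iapp (3.68) and Mafa (3.36) were among those below it. Of delta cell markers 3 of 5 lay above it, with Rbp4 at 8.31 and Sst, the somatostatin gene, at 5.49. Of fibroblast markers 3 of 8 lay above it, with Col1a1 at 5.82 and Dcn below it at 2.99. Of endothelial markers 1 of 6 lay above it, Kdr at 8.87, with Cdh5 at 2.63, and of immune markers 0 of 5. Neuron (4 of 6), duct (2 of 5), acinar (3 of 8), PP (1 of 2) and epsilon (0 of 1) cell markers completed the check. Fewer cells of a type and less RNA per cell cannot be told apart in such bulk samples.

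At the adjusted threshold of 0.05, limma called 0 of the 9 measured members and 0 of the 22142 rows (0%). At an unadjusted p under 0.05 it found 1 of the 9, Foxa1, against 1017 rows (4.59%), of which those lower in IDE-KD cells, as Foxa1 was, made up 1.91% of all rows. The fitted IDE-KD minus control difference was below 0 at 8 of 9 members, with Isl1 the exception, where 47.9% of all rows had a difference below 0. The median of the 9 differences was -0.12, and that of all rows 0.0074. The groups of no member were free of overlap (0 of 9), as they were at 2.80% of all rows. The 95% confidence interval left out a 2-fold change in either direction at all 9 measured members (99.7% of all rows) and a 1.5-fold change at 7 of 9 (83.6% of all rows), the exceptions being Foxa1 and Nkx2-2.

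**Figure D1:**
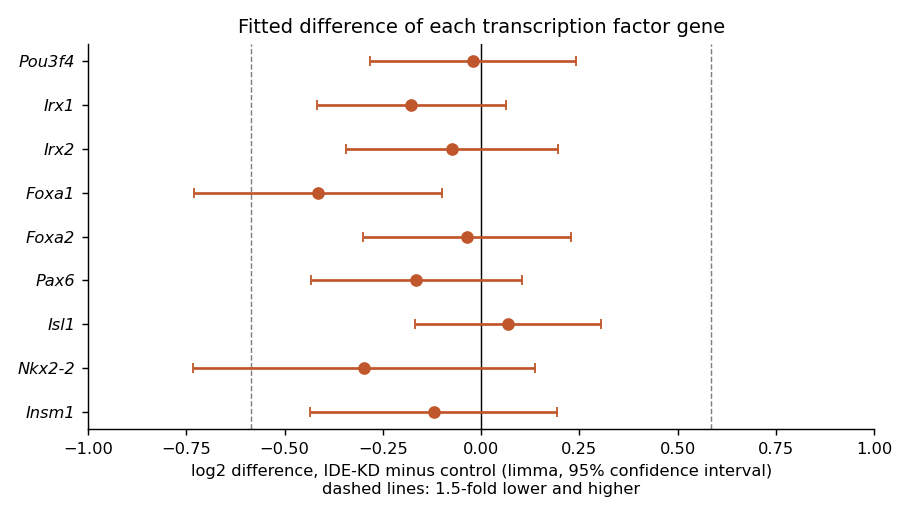
Fitted log2 difference of each measured gene, IDE-KD minus control, with the 95% confidence interval from limma on 4 arrays against 4, and dashed lines at a 1.5-fold change. The interval of Foxa1, from -0.73 to -0.099, is the only one of the 9 that leaves out 0 before adjustment, and the intervals of Foxa1 and Nkx2-2 cross the lower dashed line.

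Of the forkhead genes, Foxa1 had the largest fitted difference of the 9 members and Foxa2 a difference close to 0. Foxa1 read 4.85, 4.88, 4.75 and 4.49 on control arrays 1 to 4, and 4.08, 4.63, 4.21 and 4.39 on IDE-KD arrays 1 to 4. IDE-KD arrays 1, 3 and 4 lay below every control array, and IDE-KD array 2 lay above control array 4, so the groups overlapped. The level was 4.74 ± 0.18 on control arrays and 4.33 ± 0.24 on IDE-KD arrays (SD, n = 4), a log2 difference of -0.42 (SE 0.15), or 1.33-fold lower, which did not pass in limma (adjusted p = 1.00, unadjusted p = 0.0142, rank 270 of 22142). The exact two-sided p by permutation was 0.0571. These levels lie on either side of the median control row of 4.52, where signal is low and differences can be compressed.

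Foxa2, the other forkhead gene among the members, stood well above the median control row. It read 7.89, 8.01, 7.91 and 8.15 on the control arrays and 7.95, 8.01, 7.76 and 8.10 on the IDE-KD arrays, with IDE-KD array 3 below every control array and the others inside the control range. Its log2 difference was -0.035 (SE 0.12, 95% confidence interval -0.30 to 0.23). The value turned to 0.028 without IDE-KD replicate 3. The difference of Foxa1 between groups, less that of Foxa2 on the same arrays, was -0.38 (exact two-sided permutation p = 0.0857), so unequal differences of these genes were not shown. This comparison of paralogs and that of Irx1 with Irx2 were the 2 pairs tested, chosen after the values were seen, and the Benjamini-Hochberg adjusted exact p over the pair of tests was 0.171 for the forkhead genes.

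**Figure D2:**
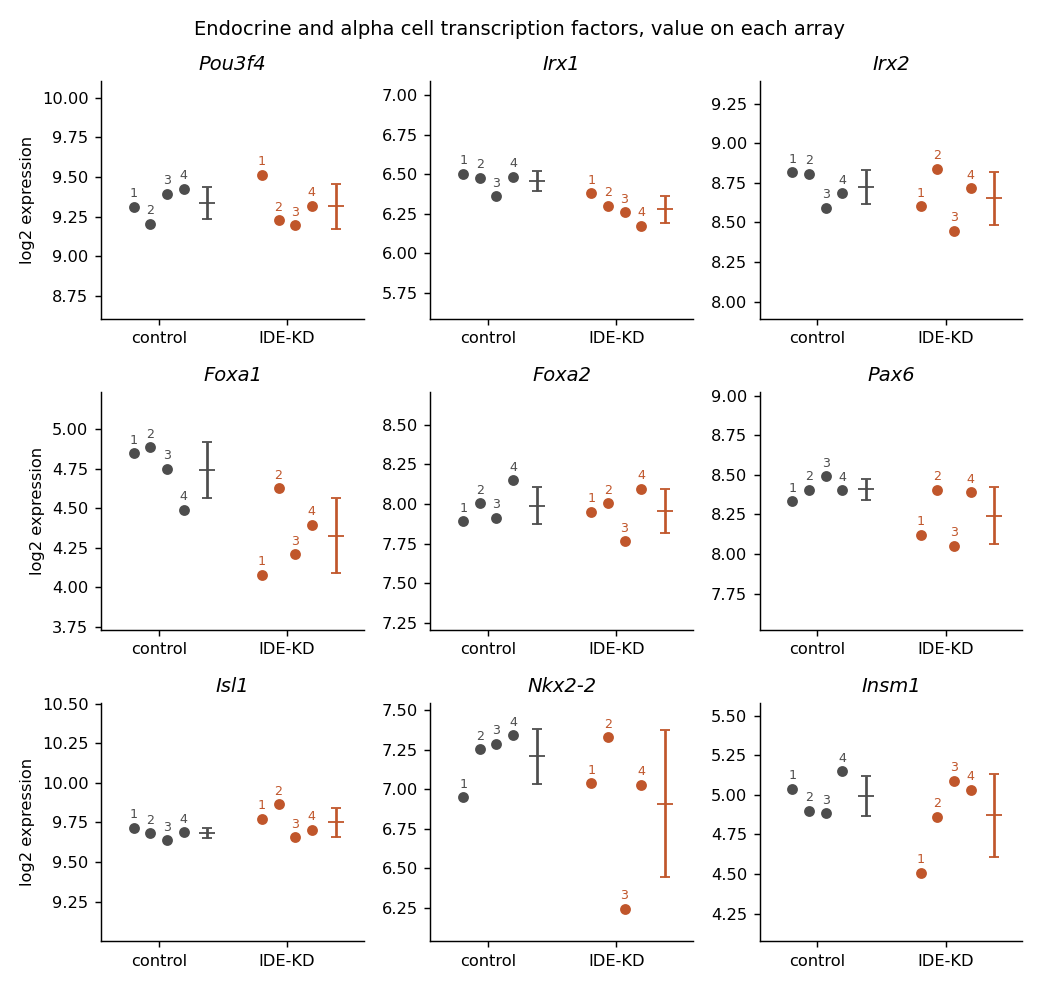
Log2 expression of the 9 measured genes on each array, numbered 1 to 4 within the control (grey) and IDE-KD (orange) groups, with the group mean and SD beside the points. Every panel spans the same number of log2 units around its own centre. Points of the groups overlap in all 9 panels, and the Nkx2-2 point of IDE-KD array 3, at 6.25, lies farthest from the rest of its group.

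The Iroquois genes, markers of alpha over beta cells, had small differences. Irx1 read 6.50, 6.48, 6.36 and 6.48 on the control arrays and 6.38, 6.30, 6.26 and 6.18 on the IDE-KD arrays. Of the IDE-KD arrays, 2, 3 and 4 lay below every control array, and array 1 lay just above control array 3, so the groups overlapped by a single pair of arrays. The log2 difference was -0.18 (SE 0.11, 95% confidence interval -0.42 to 0.062, limma adjusted p = 1.00), and the exact two-sided permutation p was 0.0571. Irx1 was among the least variable rows on the array, with a within-group SD of 0.075 at percentile 1.97 of all rows, and limma's SE for it is drawn towards the larger typical spread.

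Irx2 read 8.82, 8.81, 8.59 and 8.69 on the control arrays and 8.60, 8.84, 8.45 and 8.72 on the IDE-KD arrays. IDE-KD array 2 was the highest of all 8 arrays and IDE-KD array 3 the lowest. Its log2 difference was -0.074 (SE 0.12, 95% confidence interval -0.34 to 0.20, exact two-sided permutation p = 0.571), and -0.0056 without IDE-KD replicate 3. The difference of Irx1 between groups, less that of Irx2 on the same arrays, was -0.10 (exact two-sided permutation p = 0.40).

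Among the homeodomain factors that bind the glucagon gene, Isl1 and Pou3f4 had differences close to 0 and Pax6 read lower on some IDE-KD arrays. Isl1, a LIM homeodomain factor, read 9.72, 9.68, 9.64 and 9.69 on the control arrays and 9.77, 9.87, 9.66 and 9.70 on the IDE-KD arrays. It was the only measured member with a difference above 0, at 0.068 (SE 0.11, 95% confidence interval -0.17 to 0.31), with IDE-KD arrays 1 and 2 above every control array. Its within-group SD of 0.068 stood at percentile 1.23 of all rows, and the exact two-sided permutation p was 0.229.

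Pou3f4, a POU domain factor, read 9.31, 9.20, 9.39 and 9.43 on the control arrays and 9.52, 9.23, 9.20 and 9.32 on the IDE-KD arrays. IDE-KD array 1 was the highest of the 8 arrays and IDE-KD array 3 the lowest. The log2 difference was -0.020 (SE 0.12, 95% confidence interval -0.28 to 0.24, exact two-sided permutation p = 0.886). Its sign is not settled, since cyclic loess gave 0.0039.

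Pax6, a paired-domain factor needed for glucagon gene expression, read 8.33, 8.40, 8.49 and 8.40 on the control arrays. On the IDE-KD arrays it read 8.12, 8.41, 8.05 and 8.39, so arrays 1 and 3 lay below every control array while arrays 2 and 4 lay inside the control range. The log2 difference was -0.17 (SE 0.12, 95% confidence interval -0.43 to 0.10, exact two-sided permutation p = 0.20). Without IDE-KD replicate 3 it was -0.10.

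Of the general endocrine regulators, Nkx2-2, an NK2 class homeodomain factor that mainly represses other islet cell programmes, had the second largest difference and the widest spread. It read 6.95, 7.25, 7.29 and 7.34 on the control arrays and 7.04, 7.33, 6.25 and 7.03 on the IDE-KD arrays. IDE-KD array 3 lay far below all other arrays, and the other IDE-KD arrays lay inside the control range. The log2 difference was -0.30 (SE 0.20, 95% confidence interval -0.73 to 0.14, exact two-sided permutation p = 0.343), and it shrank to -0.076 (SE 0.14) without IDE-KD replicate 3. The within-group SD of 0.35 stood at percentile 91.1 of all rows, and that array decides most of the value.

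Insm1, whose product recruits histone-modifying corepressors, gave a low signal and rested on another array. It read 5.04, 4.90, 4.88 and 5.15 on the control arrays and 4.51, 4.86, 5.09 and 5.03 on the IDE-KD arrays, with array 1 the lowest. The log2 difference was -0.12 (SE 0.14, 95% confidence interval -0.43 to 0.19, exact two-sided permutation p = 0.486) and 0.00040 without IDE-KD replicate 1.

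The lower values were gathered on particular arrays. IDE-KD array 3 lay below every control array at 7 of the 9 members, all but Isl1 and Insm1, where 25.8% of all rows did so. IDE-KD array 1 did so at 3 members (23.3% of rows), array 2 at 2 (22.0%) and array 4 at 2 (18.9%). Averaged over the 9 members, IDE-KD arrays 1 to 4 deviated from the control mean by -0.17, -0.0093, -0.29 and -0.076. The values were between -0.025 and 0.031 on the control arrays, which set that mean and so lie closer to it by construction. Averaged over all tested rows, the IDE-KD arrays deviated by 0.0067 to 0.016. Without IDE-KD replicate 3, 6 of 9 members had a difference below 0 and their median was -0.076. Over all tested rows, the values of IDE-KD arrays 1 and 3 were the least spread, with an SD of 2.16 and 2.13 where the other 6 arrays had 2.20 to 2.25, and they had the lowest means of exon control rows, 6.95 and 6.92 against 7.05 to 7.13. The part of these array properties in the members' values was not tested.

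**Figure D3:**
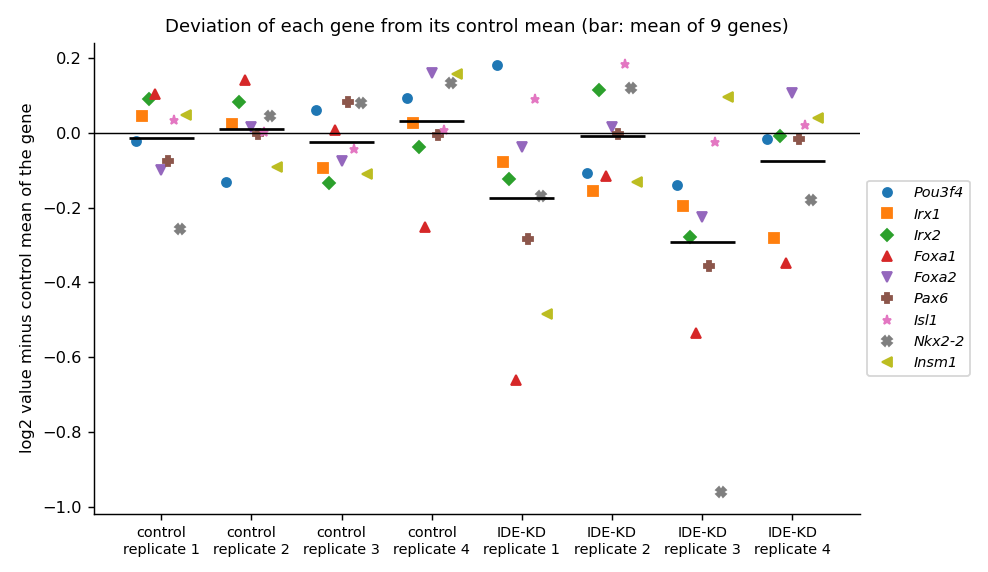
Deviation of each gene from its own control mean, in log2 units, on the 8 arrays, with a black bar for the mean of the 9 genes on each array. The bars of IDE-KD arrays 1 and 3 lie at -0.17 and -0.29, and those of IDE-KD arrays 2 and 4, at -0.0093 and -0.076, lie nearer to the control arrays.

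The odd-numbered arrays (1 and 3 of each group) hold the IDE-KD arrays with the lowest member means, so values from them and from the even-numbered arrays (2 and 4) restate that pattern gene by gene. Foxa1 differed by -0.65 (SE 0.16) among odd-numbered and by -0.18 (SE 0.20) among even-numbered arrays. Pax6 differed by -0.32 (SE 0.16) and -0.0059 (SE 0.16), and Nkx2-2 by -0.48 (SE 0.26) and -0.12 (SE 0.18). Irx1 went the other way, with -0.11 (SE 0.16) among odd-numbered and -0.24 (SE 0.17) among even-numbered arrays. The subsets were not tested against each other, and the labels give the numbers no meaning beyond naming replicates.

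The wider network around the members was read from 5 further lists. No gene of any of them passed limma's adjusted threshold. The proteins with which the members act, such as LIM adaptors, E proteins, TLE corepressors and the Insm1 corepressor complex, had 35 of 37 genes measured, 12 with a difference above 0 and 23 below, and a median of -0.036. At an unadjusted p under 0.05 there were 0 of the 35, against 4.59% of all rows. The smallest p values belonged to the corepressor gene Tle2 at -0.19 (SE 0.12), the LIM-only gene Lmo1 at 0.24 (SE 0.17), Rcor2, a subunit of a histone demethylase complex, at -0.22 (SE 0.17), and Tcf12, an E protein that pairs with NeuroD factors, at -0.17 (SE 0.13). Single arrays carried much of these values, with Lmo1 at 0.096 and Rcor2 at -0.097 without IDE-KD replicate 2 and Tcf12 at -0.081 without control replicate 3. Lmo1 had the opposite sign, -0.047, among odd-numbered arrays alone.

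Genes on which these factors act, and other effector genes of alpha and endocrine cells, had 42 of 44 measured, 22 above 0 and 20 below, with a median of 0.0037. At an unadjusted p under 0.05 limma found 1 of the 42, a share below the 4.59% of all rows. It was Vgf, a neuropeptide precursor gene, at 7.13 ± 0.090 on control arrays and 6.74 ± 0.27 on IDE-KD arrays (SD, n = 4), a difference of -0.39 (SE 0.14). The fatty amide receptor gene Gpr119 differed by 0.28 (SE 0.14; 0.17 without IDE-KD replicate 2), the incretin receptor gene Gipr by -0.25 (SE 0.13) and the L-type calcium channel gene Cacna1c by -0.19 (SE 0.11). The signal of Gipr was low, with means of 4.59 on control and 4.34 on IDE-KD arrays, on either side of the median control row. The groups did not overlap at 1 of the 42, Cacna1c (8.73 to 8.86 on IDE-KD arrays and 8.91 to 9.06 on control arrays), or 2.38% against 2.80% of all rows. Gcg had a difference of 0.0043 (SE 0.11, 95% confidence interval -0.24 to 0.25).

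Other transcription factors of the endocrine lineage had 29 of 34 measured, 16 above 0 and 13 below, with a median of 0.017, and 2 of the 29, Mlxipl and Sox9, had an unadjusted limma p under 0.05 (4.59% of all rows). Mlxipl, the glucose-responsive factor ChREBP, differed by 0.45 (SE 0.16) from a low level of 3.87 in control cells, and Sox9, a progenitor and duct cell factor, by -0.34 (SE 0.15), from 7.53 ± 0.16 to 7.18 ± 0.25 (SD, n = 4), and by -0.23 without IDE-KD replicate 3. Sox4 differed by 0.23 (SE 0.12) and the chromatin remodeller gene Smarca1 by 0.23 (SE 0.15), which was 0.098 without IDE-KD replicate 2. Transcription factors of beta and delta cells had 11 of 12 measured, 7 above 0 and 4 below, with a median of 0.15, and 1 of the 11, Nkx6-1, had an unadjusted limma p under 0.05 (4.59% of all rows). Of these, Nkx6-1, a beta cell homeodomain factor, differed by -0.30 (SE 0.14), Neurod2 by -0.31 (SE 0.16; -0.18 without control replicate 1), Nkx6-2 by 0.20 (SE 0.12) and Nr4a1, an orphan nuclear receptor gene, by 0.21 (SE 0.12). The levels of 7 of these 11 genes, Nkx6-2 among them, lay below the median control row.

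Relatives of the members in the same protein families had 31 of 32 measured, 19 above 0 and 12 below, with a median of 0.052, 2 of the 31 (Irx5 and Neurod4) had an unadjusted limma p under 0.05 against 4.59% of all rows, and 21 of the 31 lay below the median control row. Irx5, an Iroquois gene, read 4.33, 4.15, 4.17 and 4.32 on the control arrays and 4.78, 4.45, 4.64 and 4.42 on the IDE-KD arrays. It was the 1 of 31 (3.23%, against 2.80% of all rows) whose groups did not overlap. Its difference was 0.33 (SE 0.12; limma adjusted p = 1.00), at a low signal. The exact two-sided permutation p of 0.0286 follows from the lack of overlap by which Irx5 was singled out, and adds no support. Irx1 and Irx2 had differences below 0 with 95% confidence intervals that included 0, and Irx5 was not tested against them. The proneural gene Neurod4 differed by -0.45 (SE 0.20) and the LIM homeodomain gene Lhx3 by 0.40 (SE 0.22; 0.26 without IDE-KD replicate 1 and 0.61 without IDE-KD replicate 2), the latter with levels of 2.89 and 3.29 that lie below the median control row.

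**Figure D4:**
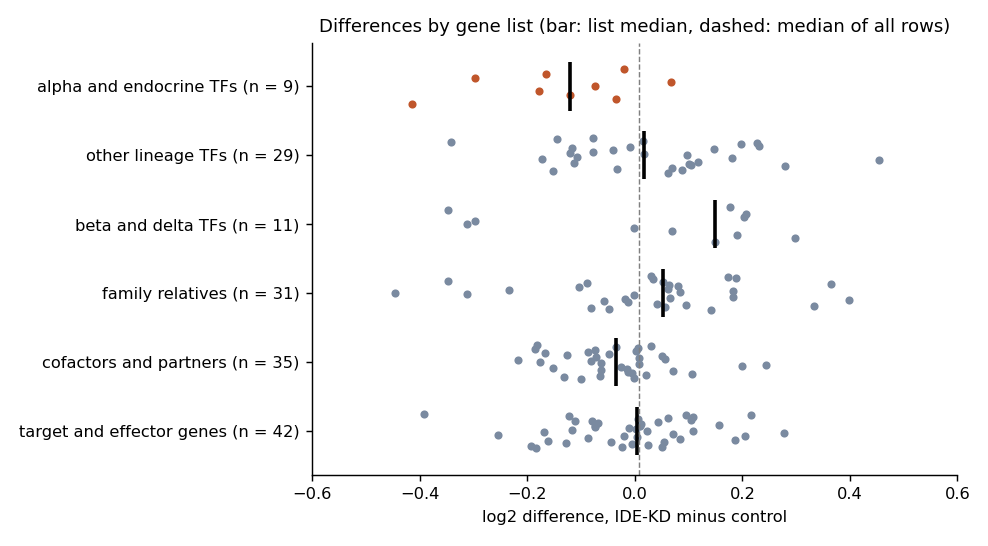
Log2 difference of each measured gene, IDE-KD minus control, in the 6 gene lists, 1 point per gene, with a black bar at the list median and a dashed line at the median of all tested rows, 0.0074. The median of the alpha and endocrine transcription factors (TFs) is -0.12, and the other medians run from -0.036 to 0.15.

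The gene rows whose profile over the 8 arrays was most like that of Foxa1, the member with the smallest p, were sought among 11030 named rows above the median control row. Likeness was the root mean square difference between centred log2 values, and Foxa1's own root mean square deviation was 0.28. The nearest were Ssr3, a subunit of the translocon-associated complex, and the zinc finger gene Zfp266, at 0.11 each. They were followed by Scfd1, which acts in transport between endoplasmic reticulum and Golgi, the checkpoint gene Rad1 and the neural gene Brinp1, all at 0.11. Their IDE-KD minus control differences were -0.26 (SE 0.15) for Ssr3, -0.40 (SE 0.12) for Zfp266, -0.29 (SE 0.15) for Scfd1, -0.30 (SE 0.17; -0.15 without IDE-KD replicate 1) for Rad1 and -0.33 (SE 0.14) for Brinp1. Ssr3 had a difference of -0.39 without IDE-KD replicate 2 and of 0.034 among even-numbered arrays alone. These rows were picked for their likeness, and no test was made.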

How the data were processed

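Total RNA of 4 control and 4 IDE-KD samples was measured on 1 array each. The deposited values are log2 expression values per probe set. The tools named in the submitters' processing notes are RMA, oligo and limma, with neither version nor role. RMA in its usual form makes the distributions of probe values equal between arrays, which removes a global change in RNA amount. It also compresses low signals. The deposited values of the tested rows were not equally distributed, with SDs of 2.13 to 2.25 on the 8 arrays. The values were used as deposited. Of 29129 rows, 22142 transcript clusters were tested, and 6923 control rows and 64 unplaced rows were left out. The platform annotation gave 1 symbol for 19527 rows, several for 0 and none for 2615. Entrez identifiers of the 19527 rows were all found in RefSeq's gene table. A gene with several rows (33 genes) was read from the row with the highest mean.

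Groups were compared with limma 3.58.1 in R 4.3.3 (lmFit, eBayes, no covariates), with Benjamini-Hochberg adjustment over all 22142 rows, and single members also with an exact two-sided permutation test. The number of arrays limits the precision, with a median half-width of 0.32 for the 95% confidence interval of a log2 difference. The limma step was tested on simulated data. Alternatives were leaving out each array, odd- or even-numbered arrays alone, the replicate number as a block, median centring, quantile normalization, cyclic loess, array weights, a trended robust variance and 2 filters on dim rows.

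The members, lists and tests were chosen with earlier results of these data known. Named were the members, Ide, Gcg, up to 4 genes of each list with the smallest p and the 5 rows most like the leading member, predicted genes and olfactory or vomeronasal receptors excepted. Irx5 and Cacna1c are singled out for groups that did not overlap, and cell type markers were named after their values were seen. The groups also did not overlap, with lower values in IDE-KD cells, at Zfp266 and Kdr, which were named for other reasons. List entries without a matched row were not analysed here. Promoter windows are from RefSeq's table for GRCm38.p6. No source used here names the genome build of the probe sets, so their coordinates are not printed.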

Additional observations from a re-analysis of the deposited data

Results flagged for a closer look

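Among 70 groups of 4 arrays of the genes named in the comparisons, 5 held an array far from the others, by Dixon's ratio of the gap to the range, which lay above its critical value. Chance alone gives such a gap in about 5% of groups. Of the 18 groups of members, 1 was so marked, the control group of Irx1 (0.840), where array 3 read 6.36 and the others 6.48 to 6.50. The others were the control group of Ssr3 (0.951), where array 4 read 8.63 and the others 8.96 to 8.98, and the IDE-KD group of Mlxipl (0.964), where array 2 read 3.86 and the others 4.46 to 4.48. In the control group of Neurod2 (0.894) array 1 read 6.55 and the others 5.99 to 6.05, and in the IDE-KD group of Neurod4 (0.882) array 2 read 5.66, above the others.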

How the results depend on the processing

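In every setting run, 0 rows and 0 members passed the adjusted threshold. With all 22142 rows tested, 788 to 1811 rows had an unadjusted limma p under 0.05. The 2 filters on dim rows gave 581 of 13602 and 522 of 12616 rows. Foxa1, Irx1, Pax6 and Nkx2-2 had a difference below 0, and Isl1 above 0, in all of them. The number of members whose groups did not overlap, 0 as reported, was 0 to 1 with an array left out (4.56% to 6.59% of all rows), 1 after median centring (2.82% of all rows), and 2 among odd-numbered and 2 among even-numbered arrays alone, subsets in which 39.6% and 35.7% of all rows did not overlap. With an array left out, the difference of Pou3f4 ran from -0.088 to 0.019, of Foxa2 from -0.083 to 0.028, of Insm1 from -0.19 to 0.00040 and of Gcg from -0.030 to 0.044. Signs also turned for Pou3f4 among odd-numbered arrays (0.0020) and after cyclic loess (0.0039), for Irx2 among even-numbered arrays (0.032), for Gcg among odd-numbered arrays (-0.041) and after median centring (-0.0092), for Lmo1 among odd-numbered (-0.047) and for Ssr3 among even-numbered arrays (0.034); the cause was not tested. With the replicate block, 0 rows passed and 1253 rather than 1017 rows had an unadjusted p under 0.05, and Foxa1 differed by -0.42 (SE 0.14). Whether the numbers pair arrays is not settled by the labels or the values. Same-numbered arrays had deviation correlations of 0.088 to 0.13, different numbers -0.23 to 0.21, and 2 of 8 arrays matched their own number best. Deviations were taken from each group's own mean, which ties these correlations to one another. Low signal limits Foxa1 and Insm1, near the median control row, and, against the 95th percentile of intron rows, also Irx1 and Nkx2-2.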
